A study of Canis lupus familiaris with 7 samples.

Results

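Canine chromosome 11 was followed along its length in the RNA of 7 primary osteosarcomas, with the cell cycle inhibitor gene CDKN2B at its centre. Its members were all array probes placed on this chromosome in the canFam2 build that lay well above background on 3 or more of the 7 arrays. Of 1133 probes of the chromosome 838 passed and 295 did not, against 32309 kept probes on the whole array. The 838 probes span 3115061 to 77305752 bases and include 488 with a gene symbol, for 297 genes. CDKN2B lies in the 5 Mb window from 40 to 45 Mb, which holds 35 kept probes, and the remaining 803 make up the rest of the chromosome. Filter and windows both used measured values, so the window profile below was chosen by the same intensities it describes and is given without a test.

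RNA of each tumour was hybridised to 1 one-colour Agilent canine array, and each tumour is 1 dog. Tumours labelled DLG2 deleted (n = 4) came from a German Shepherd/Collie mixed breed of 8 years, a Rottweiler X of 9 years, a Greyhound of 6 years and a Great Pyrenees of 7 years, numbered 1 to 4 in that order. Tumours labelled DLG2 wild type (n = 3) came from a Boxer of 12 years, a Labrador Retriever mixed breed of 10 years and a Bull Mastiff of 8 years. No treatment is given. Sex labels were 2 MC and 2 FS among the deleted tumours and 1 MC and 2 FS among the wild-type ones. These are bulk tissues, so fewer cells of a type and less RNA per cell cannot be told apart. Copy number was not analysed here.

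Between 30280 and 34538 probes per array lay well above background, 0 were saturated, and the arrays sat on 5 slides, with deleted tumours 2 and 3 and wild-type tumour 2 on the same slide. Wild-type tumours 1 and 2 had profiles closer to each other (Pearson r = 0.987 across probes) than any of the other 20 pairs (0.935 to 0.966). Of 8 listed osteoblast markers 4 had a kept probe, and all 4 (COL1A1, ALPL, BGLAP and RUNX2) were well above background on every array. The single kept DLG2 probe read 10.37, 11.44, 10.51 and 10.84 in tumours labelled deleted and 10.91, 12.03 and 11.75 in the others, a difference of -0.77 (standard error 0.35; limma adjusted p = 0.710) with overlap between the groups.

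CDKN2B encodes p15, an INK4 protein that binds the cyclin D-dependent kinases CDK4 and CDK6 and thereby keeps the RB protein active and the cell in G1. In the human genome it lies on the short arm of chromosome 9, next to MTAP, which encodes the enzyme that salvages methylthioadenosine to adenine and methionine, and this segment is often lost in tumours, osteosarcoma included. Canine chromosome 11 joins this human segment with stretches that correspond to human chromosome 5q and to the long arm of chromosome 9. A run of neighbouring genes that are high or low in 1 tumour is what a window profile of expression makes visible.

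The following 60-base probes, as the array files give them, carry the values that the results turn on: CDKN2B, its neighbour MTAP, and the first and a late gene of the run at the end of the chromosome. All letters are lower case because no motif is marked. The CDKN2B and CDK5RAP2 probes map over spans of 2757 and 2888 bases and so cross a splice junction. The MTAP and GSN probes map to 60 contiguous bases. Whether these lie in coding sequence was not analysed here.
CDKN2B (chr11:44291409-44294165, minus strand): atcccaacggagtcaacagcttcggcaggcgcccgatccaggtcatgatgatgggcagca
MTAP (chr11:44229740-44229799, plus strand): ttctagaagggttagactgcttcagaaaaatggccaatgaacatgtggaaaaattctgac
CDK5RAP2 (chr11:76576801-76579688, minus strand): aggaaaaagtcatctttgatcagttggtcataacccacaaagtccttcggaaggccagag
GSN (chr11:77293398-77293457, plus strand): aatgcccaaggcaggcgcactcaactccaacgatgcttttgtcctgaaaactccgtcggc

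Levels below are background-corrected, quantile-normalized log2 intensities, and a deviation is a tumour's level minus the median of the 7 tumours at that probe, also in log2. Among the 838 probes the median standard deviation (SD) over the 7 tumours was 0.27, against 0.26 over all kept probes. The levels spanned more than 2 log2 units on 63 of the 838 (7.52%), against 6.52% over all kept probes. The filter took in dim probes: 710 of the 838 were well above background on all 7 arrays, whereas 38 were so on exactly 3, with mean levels of up to 6.95 (median 6.58). The 41 probes just outside, well above background on 2 arrays, had mean levels of 6.46 to 6.83 (median 6.54), which overlap those just inside.

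In 16 windows of 5 Mb the chromosome was flat in most tumours, with 2 exceptions. Of the 112 window medians (16 windows in 7 tumours) 106 lay within 0.2 of 0. The window at 75 to 80 Mb in deleted tumour 2 stood at 1.12, the largest deviation in either direction of any tumour among 486 windows of the whole genome. The window at 45 to 50 Mb in wild-type tumour 3 stood at 0.53, the highest of all 486 windows of that tumour. The other 4 beyond 0.2 were the end window in wild-type tumour 1 (-0.28), 35 to 40 Mb in deleted tumours 1 and 2 (0.23 and 0.24) and 10 to 15 Mb in deleted tumour 2 (-0.20).

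**Figure D1:**
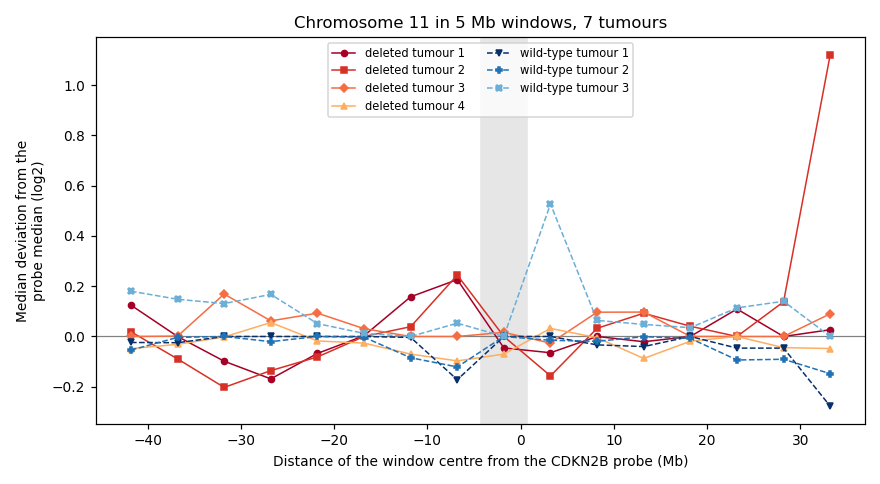
Median deviation (log2) of the kept probes in each 5 Mb window of chromosome 11, against the distance of the window's centre from the CDKN2B probe in Mb; 1 line per tumour, solid for deleted and dashed for wild type, with the window that holds CDKN2B shaded. The shaded window lies between -0.07 and 0.02 in all 7 tumours, the end of the chromosome reaches 1.12 in deleted tumour 2 and the window after CDKN2B reaches 0.53 in wild-type tumour 3.

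The SD over the 16 windows measures how uneven the chromosome was in a tumour. It was 0.30 in deleted tumour 2, higher than for any of the other 39 chromosomes with 5 or more windows in that tumour (0.03 to 0.14), and 0.12 without the last window. In wild-type tumour 3 it was 0.13, with 1 chromosome higher. In the remaining tumours it ranged from 0.04 (deleted tumour 4, with 32 chromosomes higher) to 0.10 (deleted tumour 1, with 10 higher).

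The window that holds CDKN2B was level with the rest of the chromosome. Deleted tumours 1 to 4 had median deviations of -0.05, 0.00, 0.02 and -0.07 there, and all 3 wild-type tumours 0.00. After subtraction of the median of the other 803 probes, the mean was -0.03 ± 0.02 (SD) over the 4 deleted tumours. It was -0.02 ± 0.06 (SD) over the 3 wild-type ones, and the groups overlap. A flat median did not mean flat genes: 7 of the 35 probes (20%) spanned more than 2 log2 units over the tumours.

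The CDKN2B probe itself read 6.65, 7.31, 6.78 and 6.63 in the deleted tumours, in their numbered order as in all lists of levels below, and 6.78, 6.69 and 6.55 in the wild-type ones. Deleted tumour 2 was highest, and the groups overlap. In deleted tumour 4 the probe was not well above background. The deleted minus wild-type difference was 0.17 (standard error 0.18; limma adjusted p = 0.910; exact permutation test over 35 assignments, two-sided, p = 0.571, where 0.0571 is the smallest possible). It was 0.01 without deleted tumour 2 and 0.96 with normexp and percentile scaling, neither at an unadjusted p below 0.05. A second probe inside the CDKN2B span (TC71249 in the files, described there as an alternative form of p15) read 6.57, 7.20, 6.66 and 6.54 in deleted and 6.65, 6.63 and 6.56 in wild-type tumours, again highest in deleted tumour 2. It was not well above background in deleted tumours 1 and 4.

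MTAP, 61.7 kb before CDKN2B, was well above background in every tumour and split the tumours in a way that crosses DLG2 status. It read 8.53, 10.31, 9.91 and 7.99 in the deleted and 9.76, 9.85 and 8.29 in the wild-type tumours. Deleted tumours 1 and 4 and wild-type tumour 3 were the lowest, 1.23 log2 units below the next tumour. The probe DN755513 has no gene symbol and lies between the MTAP and CDKN2B probes. It starts at 44289696 bases and the CDKN2B probe at 44291409, and whether it reads CDKN2B RNA was not analysed here. DN755513 read 7.30, 9.28, 8.96 and 7.51 in deleted and 8.55, 8.31 and 7.14 in wild-type tumours. The same 3 tumours were lowest, by 0.80. These 3 tumours were also the lowest at CDKN2B and TC71249, there by only 0.05 and 0.07 on this scale and with deleted tumour 4 not well above background. These 2 gaps depended on the scaling. They were 0.82 and 0.75 with processed signals at the 75th percentile and 0.59 and 0.69 with quantile-normalized ones. Without background correction they were 0.26 and 0.15. At MTAP the gaps were 1.58, 1.56 and 1.47 in the same order. With normexp and percentile scaling the 3 tumours were the lowest at MTAP alone, and that scaling moved deleted tumour 1 by 0.84 over all probes. Neither flank had the same lowest 3, though the probes before MTAP shared part of them. The nearest, ENSCAFT00000002615, was lowest in deleted tumours 3 and 4 and wild-type tumour 3. The next, ENSCAFT00000036531, was lowest in deleted tumour 4 and wild-type tumours 2 and 3, by 0.005. The interferon gene IFNA7, 515 kb before CDKN2B, was lowest in deleted tumours 1, 3 and 4, by only 0.0017. The neuronal RNA-binding protein gene ELAVL2, 1245 kb beyond CDKN2B, was lowest in deleted tumours 2 and 3 and wild-type tumour 2. By DLG2 status MTAP differed by -0.11 (standard error 0.67; limma adjusted p = 0.987) and DN755513 by 0.26 (0.60; 0.960).

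**Figure D2:**
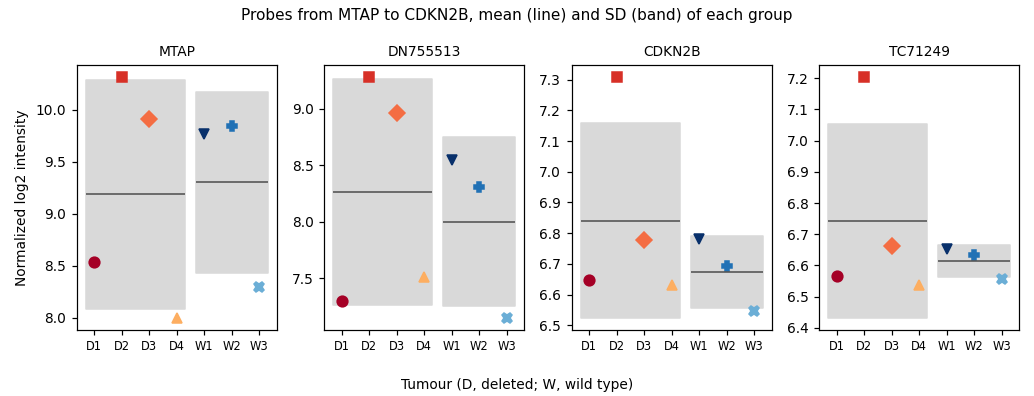
Normalized log2 intensity in each tumour (D1 to D4 deleted, W1 to W3 wild type) at the 4 probes from MTAP to CDKN2B, with the mean of each group as a line and its SD as a band; each panel has its own axis. D1, D4 and W3 are the 3 lowest tumours in every panel, with a gap of 1.23 at MTAP and 0.05 at CDKN2B.

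The other named genes of the window followed their own orders. PLIN2, which coats lipid droplets, had the widest spread: its brightest probe read 11.33, 13.46, 11.98 and 10.65 in deleted and 10.90, 13.10 and 10.42 in wild-type tumours. Deleted tumour 2 and wild-type tumour 2 were highest at all 3 PLIN2 probes and at the adjacent TC52245, and deleted tumour 4 was among the lowest. Deleted tumour 4 had the highest median over 5 adipocyte markers (deviation 3.65), though 1 of them, LEP, was lowest there (7.96). The part of these markers in the PLIN2 levels was not tested. CNTLN, a centrosomal protein gene, was 1.09 and 0.99 above its median in deleted tumour 2 at its 2 probes, against at most 0.27 elsewhere. PTPLAD2, a very-long-chain fatty acid elongation enzyme, read 8.29, 8.13, 10.17 and 9.01 in deleted and 8.60, 8.94 and 9.66 in wild-type tumours at its brighter probe, highest in deleted tumour 3. FTH1, the ferritin heavy chain, lay between 15.91 and 17.09, highest in deleted tumours 3 and 4.

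The remaining 10 named genes of the window moved less. RRAGA (a Rag GTPase of mTORC1 signalling), HAUS6 (augmin complex), DENND4C (a RAB exchange factor), ACER2 (alkaline ceramidase), SAXO1, MLLT3 (super elongation complex), ADAMTSL1 and SLC24A2 (a sodium, potassium and calcium exchanger) stayed within 0.4 of their medians in all tumours. FOCAD spanned 1.09 and IFNA7 0.72. The probes of ADAMTSL1, SLC24A2, MLLT3, ACER2 and SAXO1 were dim, with levels between 6.51 and 7.20. Small movements at such probes do not show that the RNA was steady. ADAMTSL1, SLC24A2 and MLLT3 were lower in all 4 deleted than in all 3 wild-type tumours, by -0.21, -0.22 and -0.14. These 3 of 35 probes were the only ones in the window whose groups did not overlap, against 8.12% of all kept probes, and 0 of 35 reached an unadjusted p below 0.05, against 7.27% of all kept probes. The median difference over the window was 0.01, against 0.02 over the rest of the chromosome.

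**Figure D3:**
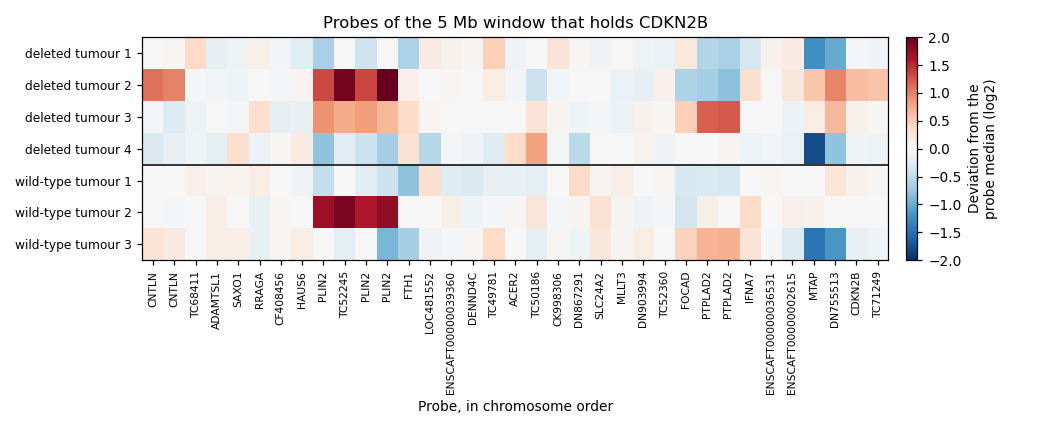
Deviation from the probe median (log2, colour) of the 35 kept probes in the window that holds CDKN2B, in chromosome order, for 4 deleted tumours above the line and 3 wild-type tumours under it. PLIN2 and TC52245 are high in deleted tumour 2 and wild-type tumour 2, and MTAP and DN755513 are low in deleted tumours 1 and 4 and wild-type tumour 3.

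The last 729 kb of covered sequence, from CDK5RAP2 to the final probe, was high in deleted tumour 2. Over these 25 probes of 8 named genes its median deviation was 1.24, against 0.03, 0.14 and -0.05 in the other deleted tumours and -0.31, -0.15 and 0.00 in the wild-type ones. Deleted tumour 3 (0.14) and wild-type tumour 2 (-0.15) shared its slide. It was the highest tumour at 20 of the 25, whereas it was highest at 16.8% of all kept probes, and it exceeded its probe median by more than 1 log2 unit at 14. Over the 7 kept probes before it, from 73493437 bases on, the median in this tumour was 0.28, with deviations of -0.04 to 0.83, and it was highest at 2 of them. The nearest of these, at 75.5 and 76.0 Mb, deviated by -0.04 and 0.06. In the window from 70 to 75 Mb its median was 0.14, and it was highest at 33.8% of 65 probes, against that 16.8%. The array has no kept probe in the 561 kb between the last of these and CDK5RAP2.

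CDK5RAP2, a centrosomal protein gene, read 7.98, 10.62, 9.10 and 8.00 in the deleted and 8.66, 8.56 and 8.46 in the wild-type tumours. FBXW2, an F-box subunit of ubiquitin ligases, read 10.42, 12.17, 10.29 and 9.79 in deleted and 9.96, 10.15 and 10.41 in wild-type tumours at its brighter probe. Deleted tumour 2 stood alone at both genes. PSMD5, an assembly chaperone of the proteasome, deviated there by 0.29, 1.70 and 1.98 at 3 probes, CEP110 (centriolin) read 9.38 there and 7.61 to 8.17 elsewhere, and the vesicle traffic GTPase RAB14 deviated by 1.54, 1.12 and 1.51. MEGF9 was weaker, at 0.25, 0.81 and 0.73. In all, 5 probes of the run deviated there by less than 0.3 (0.11 to 0.29), and their wild-type means lay between 6.53 and 7.14, at the dim end of the array.

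The last genes of the run, GSN and STOM, were high in more than this tumour. GSN encodes gelsolin, which severs actin filaments, and its probe shown above read highest in deleted tumours 3 and 2 (12.29 and 12.26), against 10.08 to 11.40 in the other 5. STOM, the membrane protein stomatin, read 11.42, 13.76, 12.55 and 12.66 in deleted and 10.99, 11.47 and 10.48 in wild-type tumours at its brighter probe. At GSN deleted tumour 3 stood level with deleted tumour 2, and deleted tumours 3 and 4 were also high at STOM. Without these genes deleted tumour 2 was highest at 18 of the remaining 20 probes, with a median of 1.37. Deleted tumour 2 also had a median deviation of 1.99 over 6 cartilage markers and of -1.52 over 4 osteoblast markers, and their part in the run was not tested.

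**Figure D4:**
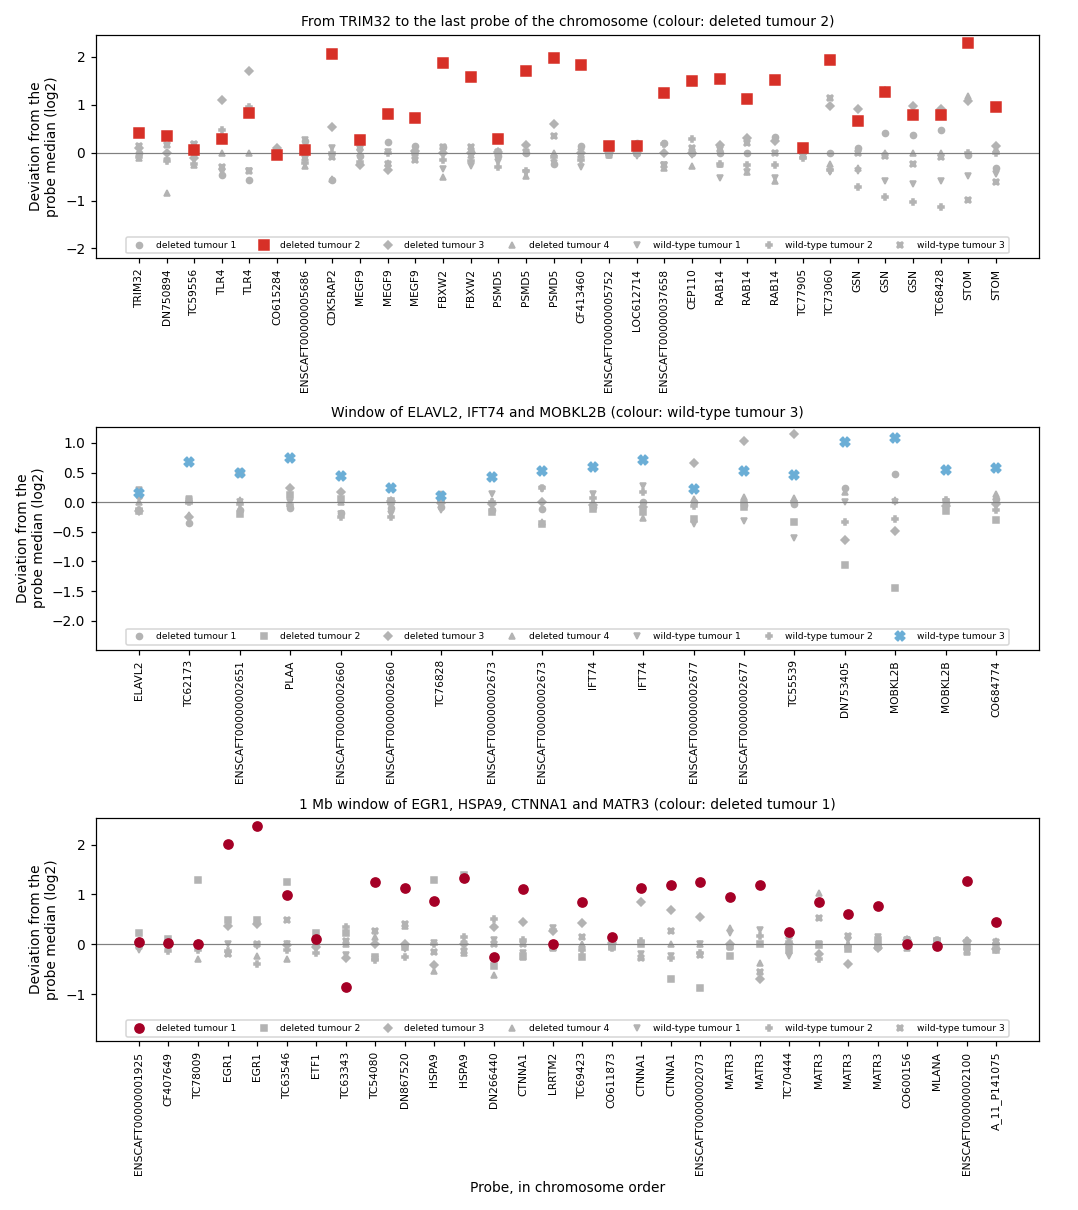
Deviation from the probe median (log2) of each kept probe in chromosome order in 3 stretches of chromosome 11, with 1 tumour coloured and the other 6 in grey. Deleted tumour 2 (top) is highest at 20 of the 25 probes from CDK5RAP2 on, wild-type tumour 3 (middle) at 12 of 18 and deleted tumour 1 (bottom) at 17 of 30.

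The window after CDKN2B, from 45 to 50 Mb, was high in wild-type tumour 3. All 18 probes were above their median there, by 0.10 to 1.08, and this tumour was the highest at 12 of them, against 16.2% of all kept probes. These probes hold only 4 named genes. Of the 18, 16 lie between 48 and 49 Mb, where the named genes are IFT74, MOBKL2B and PLAA, so many are repeated readings of few neighbouring genes. The gene nearest to CDKN2B, ELAVL2, showed least of it among the named genes (0.15). PLAA, a phospholipase A2-activating protein that binds ubiquitin, read 8.88, 9.09, 9.21 and 8.94 in deleted and 8.97, 8.93 and 9.71 in wild-type tumours. MOBKL2B, a MOB kinase activator, read 10.66, 8.72, 9.69 and 10.22 in deleted and 10.18, 9.89 and 11.26 in wild-type tumours. In both, wild-type tumour 3 was highest and deleted tumours spanned the other wild-type values. This same tumour was low at MTAP, 3.92 Mb from PLAA. It also had the highest median over the osteoclast markers (deviation 2.99 over 5 genes, 7 listed). Of these, CALCR was higher in deleted tumour 1 (7.23) than in wild-type tumour 3 (7.16). The part of these markers in this window was not tested.

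A run in deleted tumour 1 was hidden by the 5 Mb window, whose median was 0.00, and showed in windows of 1 Mb, which were set after the data were seen. At 29 to 30 Mb this tumour had a median of 0.85 and was highest at 17 of 30 probes, against 17.3% of all kept probes, and 16 probes exceeded 0.8. The immediate early gene EGR1 deviated by 2.01 and 2.37, the adhesion protein gene CTNNA1 by up to 1.19 (3 probes) and the nuclear matrix protein gene MATR3 by 0.61 to 1.18 over 5 probes. The mitochondrial chaperone HSPA9 read 11.97, 12.39, 10.69 and 10.56 in deleted and 11.12, 11.10 and 10.94 in wild-type tumours, and there deleted tumour 2, not deleted tumour 1, was highest. The adjoining 1 Mb windows of deleted tumour 1 stood at 0.29 and 0.20.

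Closer to CDKN2B, the stretch from 35 to 40 Mb differed between tumours gene by gene. Deleted tumour 1 was high at PSIP1 (0.72 to 1.08 over 3 probes), ZDHHC21 (1.15) and LURAP1L (1.06 and 1.38), the last shared with deleted tumour 2. NFIB, a transcription factor gene, read 12.01, 11.90, 11.25 and 12.62 in deleted and 10.93, 11.03 and 11.94 in wild-type tumours at one of its brighter probes, lowest in wild-type tumours 1 and 2. BNC2, a zinc finger protein gene, read 8.87, 9.25, 8.99 and 7.22 in deleted and 8.23, 8.68 and 7.25 in wild-type tumours, so that deleted tumour 4 and wild-type tumour 3 were lowest. These 2 were also among the lowest 3 at MTAP, 4.69 Mb away, but deleted tumour 1 was not low here (0.19). By DLG2 status 35 of the 37 probes of this stretch were higher in deleted tumours, against 51.0% of all kept probes, with a median difference of 0.22 (0.13 without deleted tumour 1). An unadjusted p below 0.05 was reached by 0 of 37, against 7.27% of all kept probes, and the window medians of the groups overlap.

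Across the chromosome, the comparison of 4 deleted with 3 wild-type tumours called 0 of 838 probes at the study's threshold (unadjusted p below 0.05 with adjusted p below 0.1), against 0 of 32309 on the whole array (0%). At an unadjusted p below 0.05 alone there were 46 (5.49%), against 7.27% of all kept probes. Of these 20 were higher in deleted tumours (2.39%, against 3.1%) and 26 lower, against 4.18% of all. This split turned with the scaling: 27 of 47 were higher with quantile-normalized processed signals and 10 of 17 with normexp and percentile scaling. The count was 74 without deleted tumour 4, and 1 probe (FBN2) was called without wild-type tumour 3. The groups did not overlap at 60 of 838 (7.16%, against 8.12%). All these shares are near or below the background. The lowest adjusted p on the chromosome was 0.382, and each p measures the spread between tumours of different dogs.

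The 10 named genes with non-overlapping groups and the lowest unadjusted p were 5 higher and 5 lower in deleted tumours, with adjusted p from 0.382 to 0.612. TNC, the matrix glycoprotein tenascin C, led them: it read 10.77, 10.06, 10.68 and 10.04 in deleted (mean 10.39 ± 0.39 SD, n = 4) and 11.68, 11.54 and 11.93 in wild-type tumours (11.71 ± 0.20 SD, n = 3). Its difference was -1.33 (standard error 0.23; limma adjusted p = 0.382), and its other probe differed by -0.71 (0.17; 0.494), also without overlap. The actin regulator GSN at its brightest probe was next in size, with 15.23 ± 0.44 in deleted and 14.06 ± 0.40 in wild-type tumours and a difference of 1.17 (0.29; 0.498). Its other probes differed by 0.71 and 1.27.

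UGCG, which makes glucosylceramide, read 11.88, 12.26, 12.11 and 11.65 in deleted and 10.81, 11.34 and 11.44 in wild-type tumours, a difference of 0.78 (0.21). BRD8, a bromodomain subunit of a histone acetyltransferase complex, was 0.66 higher (0.22), and its 3 other probes differed by 0.52 to 0.60. IFGGC1 (0.50, standard error 0.11) and C11H9orf5 (0.31, 0.10) were the other 2 that were higher. Among those lower, UQCRQ of respiratory complex III differed by -0.56 (0.16), the ciliary transport gene IFT74 by -0.51 (0.15), the chaperone HSPA4 by -0.49 (0.15) and the splicing factor HNRNPH1 by -0.48 (0.12). Groups that do not overlap were the rule by which these 10 were chosen, and none passed the threshold. IFT74 lies in the window in which wild-type tumour 3 was high, and GSN in the run of deleted tumour 2. HNRNPH1 has a close paralogue and 5 other probes, which differed by -0.47 to -0.05, so its value is uncertain.

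**Figure D5:**
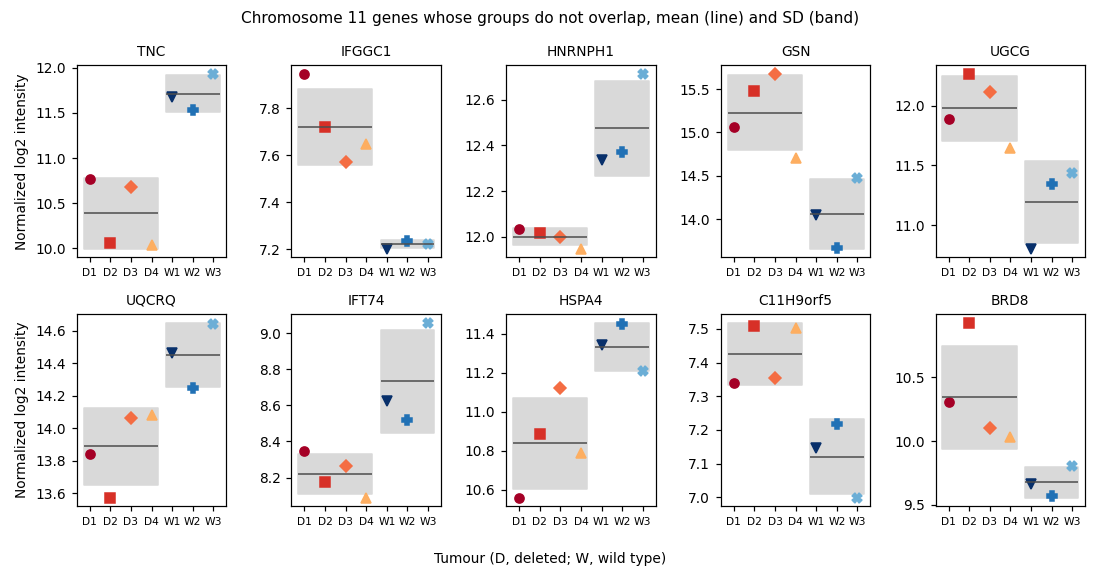
Normalized log2 intensity in each tumour (D1 to D4 deleted, W1 to W3 wild type) of the 10 named chromosome 11 genes with non-overlapping groups and the lowest unadjusted p, with group mean (line) and SD (band); each panel has its own axis. TNC shows the largest difference, -1.33, and 0 of the 10 passed the adjusted threshold.

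Gene lists described the same picture with 1 probe per gene, beside a median difference of 0.01 over 11116 genes. Of all these genes 5865 were higher and 5251 lower in deleted tumours. An unadjusted p below 0.05 was reached by 405 of the higher and 439 of the lower ones. Of the INK4, cyclin D and RB axis, which lies on many chromosomes, 23 of 28 genes were measured, 6 higher and 17 lower in deleted tumours (median -0.06), and 0 were called. CCND3, a cyclin D, differed by 0.83 (standard error 0.32), the p19 gene CDKN2D by -0.61 (0.19) and CCND2 by -1.57 (0.66), each at an unadjusted p below 0.05. CCND2 read 7.48, 7.46, 8.37 and 6.92 in deleted but 10.15, 9.69 and 7.54 in wild-type tumours, so that the difference lay with wild-type tumours 1 and 2, the pair with the most similar profiles. The kinases CDK4 and CDK6 differed by 0.09 (0.22) and -0.02 (0.14) and RB1 by -0.09 (0.21).

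Of 40 listed neighbours of CDKN2B in the human map, 19 had a kept probe on this chromosome, 8 higher and 11 lower (median -0.06). IFT74 was the only one at an unadjusted p below 0.05. Of 33 immune and cytokine genes of the corresponding human segments 22 were measured, 15 higher and 7 lower (0.17). UGCG, CAMLG, which takes part in calcium signalling (-0.49, standard error 0.20), and the actin-associated PDLIM4 (-0.60, 0.24) had an unadjusted p below 0.05. Of 29 matrix and bone genes 19 were measured, 8 higher and 11 lower (-0.10), with TNC and SVEP1, a large adhesion protein (1.12, 0.42), at that level. SVEP1 read 10.37, 8.82, 10.31 and 9.79 in deleted and 8.92, 8.17 and 9.00 in wild-type tumours, and here the groups overlap. Of all these genes 0 were called.

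Some marker lists deviated further in single tumours than any window of the chromosome, whose largest deviation was 1.12. Their medians reached 2.99 (osteoclast), 3.65 (adipocyte), 1.99 (cartilage) and -1.52 (osteoblast). The medians of the other lists did not go beyond 1.12, and each list median rests on fewer genes than a window has probes. By DLG2 status the median difference was -1.55 for osteoclast (5 of 7 genes measured), -0.78 for osteoblast (4 of 8), 0.82 for cartilage (6 of 6), 0.82 for adipocyte (5 of 5), 0.50 for endothelial (5 of 6), -0.14 for leukocyte (5 of 8), 0.00 for skeletal muscle (4 of 6) and -0.62 for proliferation markers (4 of 8). In these lists 0 genes were called. At an unadjusted p below 0.05 were the replication clamp PCNA, which read 9.90 to 11.19 in deleted and 11.28 to 12.26 in wild-type tumours (-1.29, standard error 0.36), the replicative helicase subunit MCM2 (-0.67, 0.26) and the T cell gene CD3E (0.51, 0.17). The groups did not overlap at PCNA, CD3E and the adipocyte gene LPL, beside 853 of all 11116 genes with 1 probe each. The part of the markers in the differences above was not tested.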

How the data were processed

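Per the file headers, the deposited arrays hold spot and local background intensity on a linear scale, and a processed intensity, from Agilent Feature Extraction 10.7.3.1. Per the study's methods, values were normalized by multi-array averaging and corrected for an unstated batch. That step is not in the files used here. Here mean spot intensity was corrected with normexp (offset 50), put on the log2 scale and quantile-normalized in limma 3.58.1 (R 4.3.3), a scale set here from the deposited intensity. Control spots and 144 outlier values (2 on chromosome 11) were left out. Probes well above background on at least 3 arrays were kept, 32309 of 43603. Coordinates are those of the files (canFam2). Symbols came from the files and, for 53 of the 488 named probes of the chromosome, from a RefSeq table (assembly UU_Cfam_GSD_1.0). The number of arrays limits the precision.

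Windows started at 0 and needed 10 probes. Groups were compared with limma (lmFit, eBayes) over all kept probes, Benjamini-Hochberg adjusted, and CDKN2B also with an exact permutation test (scipy 1.17.1). Named genes were all symbols in the CDKN2B window, the 10 with non-overlapping groups and lowest p, the 3 with the largest deviation in each of the 3 most deviant windows, and chromosome 11 list genes with an unadjusted p below 0.05. Other genes, list genes of other chromosomes included, were named after their values were seen. The members, 4 gene lists, 8 marker lists and tests were chosen with earlier results of these data known. Scripts were tested on simulated data. Alternatives were other scalings, filters, models, covariates and windows, and leaving out each tumour.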

Additional observations from a re-analysis of the deposited data

Results flagged for a closer look

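Among the 4 deleted tumours, 28 probes of named genes (20 in the window that holds CDKN2B and 8 elsewhere) were examined by Dixon's test for a tumour far from the others. The window medians and the genes of the end window and of 45 to 50 Mb were left out, since they had been described for their deviation. The critical value was exceeded at 2 probes, where chance gives about 5% of 28. Deleted tumour 4 was highest at both, the dim probes of SAXO1 (gap 0.848 of the range) and ACER2 (0.839), with levels of 7.04 and 7.03. The 3 wild-type tumours are too few for this test.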

How the results depend on the processing

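The differences of CDKN2B and of the 10 named genes kept their sign under every alternative run, and their adjusted p stayed above 0.1. The 10 genes were chosen because their groups did not overlap. For them, leaving out a tumour or changing the filter or the test could not turn the sign. CDKN2B ranged from 0.01 (without deleted tumour 2) to 0.96. The 46 probes at an unadjusted p below 0.05 became 17 with normexp and percentile scaling, 102 with array weights, 25 with slide as a block and 70 with age as a covariate, and ranged from 33 to 74 when each tumour was left out. Calls were 0 except for FBN2 without wild-type tumour 3 (range 0 to 1; -3.01, adjusted p = 0.0977). The median difference of the CDKN2B window (0.01) became 0.36 with percentile scaling of normexp values, which itself moved the median of all probes by 0.32 and deleted tumour 1 by 0.84, and 0.057 without background correction, and ranged from -0.025 to 0.093 when tumours were left out. The window against the rest (-0.01 between groups) became -0.10 with processed signals at the 75th percentile, 0.092 with normexp and percentile scaling and 0.14 for the probes from MTAP to CDKN2B alone, and ranged from -0.089 to -0.0063 when tumours were left out. The 3 lowest tumours at MTAP were the same under all 5 scalings, and those at DN755513, CDKN2B and TC71249 under 4 of them, though their order among themselves varied at CDKN2B and TC71249, normexp with percentile scaling being the exception.

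The end window in deleted tumour 2 (1.12) was 1.50 and 1.53 with processed signals (percentile and quantile), 1.35 without background correction, 1.04 from the probe mean, 1.62 with 1 probe per gene, 1.24 both for probes detected on all 7 arrays and in the 1 Mb window, and 1.37 for the run without GSN and STOM (1.02 to 1.25 with other tumours left out). The 45 to 50 Mb window in wild-type tumour 3 (0.53) was, in the same order of scalings, 0.84, 0.80 and 0.69, with 0.51 under normexp and percentile scaling, 0.46 from the mean, 0.72 with 1 probe per gene and 0.50 for detected probes (0.48 to 0.53). The end window in wild-type tumour 1 (-0.28) was -0.46 with quantile-normalized processed signals, -0.40 without background correction and -0.43 from the mean (-0.31 to -0.22). The causes of these changes were not tested. At 75 to 80 Mb the median group difference of 0.50 became 0.11 without deleted tumour 2, and at 35 to 40 Mb that of 0.22 ranged from 0.13 (without deleted tumour 1) to 0.39 (normexp and percentile scaling). No paired analysis was possible because each tumour is 1 dog, and tumour numbers, given in accession order, do not match tumours between the groups. Dim probes such as CDKN2B near background limit the smallest difference that could be seen.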

Other observations

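The chromosome 11 gene with the widest span over the 7 tumours was TGFBI, an adhesive matrix protein, which read 10.62, 13.86, 12.74 and 9.84 in deleted and 14.35, 14.62 and 11.74 in wild-type tumours. FBN2, the microfibril protein fibrillin 2, came next and read 10.55 and 10.41 in wild-type tumours 1 and 2 but 6.84 in wild-type tumour 3 and 6.73 to 7.91 in deleted tumours. SPOCK1, a proteoglycan, read 9.57, 7.23, 9.91 and 10.82 in deleted and 10.67, 8.56 and 9.78 in wild-type tumours. The chemokine CXCL14 lay between 11.39 and 12.65 in 6 tumours and at 9.16 in wild-type tumour 3. CA9, a hypoxia-induced carbonic anhydrase, was highest in deleted tumour 3 (9.74) and lowest in wild-type tumour 3 (6.79). The receptor phosphatase PTPRD read 6.64, 7.37, 6.69 and 8.85 in deleted and 8.25, 8.42 and 9.33 in wild-type tumours. None of these 6, named after their values were seen, had an unadjusted p below 0.05.

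Deleted tumour 4 and wild-type tumours 1 and 2 were seldom the highest on this chromosome, at 8.11%, 4.77% and 4.42% of the probes, against 18.6%, 9.52% and 8.42% of all kept probes. Wild-type tumour 3 was highest at 23.7% and deleted tumours 2 and 3 at 22.4% and 20.4%, against 16.2%, 16.8% and 13.3%.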
